A study of Mus musculus with 4 samples.

Results

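Chaperones of the cytosol and the mitochondria were followed in the left ventricle of mice under pressure overload. The genes were chosen by symbol: names that start with Hspa, Hsp90, Dnaja, Dnajb or Dnajc, the numbered Hspb, Bag and Cct genes, and Hspd1, St13 and Stip1. Of the chaperones of the endoplasmic reticulum lumen, Hspa5, Hsp90b1, Dnajb9, Dnajb11 and Dnajc3 were kept out by name. The rule still holds some genes tied to the endoplasmic reticulum, such as Hspa13 and Dnajc1. This rule named 75 genes, and 73 of them could be read on all 4 arrays, out of 14039 named genes with such values. Dnajc5b and Hspb9 had empty cells on 1 or more arrays and were not used. Hspa1a, Hspa1b, Hspe1, Hsph1 and Tcp1 are also named by the rule or its families and were not analysed here.

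The study compared wild-type (WT) mice with mice labelled STIM1KO, both sham-operated and under transverse aortic constriction (TAC), a ligature around the aortic arch that loads the left ventricle with pressure. All mice were male C57BL/6, operated on at 10 weeks of age over a wire of 0.3 mm, and their hearts were taken 4 weeks later, at 14 weeks. The ratio of heart to body weight in the labels averaged 4.1 after sham and 6.7 after TAC in WT, and 4.5 after sham and 4.9 after TAC in STIM1KO. Each group was measured on 1 array, and the labels give neither the STIM1 allele nor whether an array carried RNA of 1 mouse or of a pool. There was therefore no replicate, no test and no standard deviation between animals, and every difference below is one between single arrays. STIM1 itself senses calcium in the endoplasmic reticulum lumen and gates Orai channels at the cell surface.

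Chaperones bind unfolded or aggregation-prone proteins and either hold them, refold them or hand them on for degradation. Small heat shock proteins hold clients without ATP, Hsp70 and Hsp90 fold them in ATP-driven cycles paced by J proteins, BAG proteins and Hsp110, and the ring-shaped chaperonins TRiC (cytosol) and Hsp60 (mitochondria) enclose them. In heart muscle, Hspb1, Hspb6, Hspb7, Hspb8, Bag3 and the crystallin Cryab are known for guarding sarcomeric and cytoskeletal proteins. Many of these genes are targets of heat shock factor 1, which binds heat shock elements, repeats of the unit nGAAn in alternating orientation.

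The promoters of small heat shock protein genes and of Hspd1 are shown because some of them carry such elements and others do not. A further reason is that all 7 Hspb genes with values read lower after TAC than after sham in STIM1KO. The related crystallin Cryab, outside these symbols, read higher. Sequences are RefSeq promoter windows of build GRCm38.p6, from 250 bases before to 50 bases after an annotated start, and 58 of the 73 genes had 1 or more. The full 250 bases before the start are printed for Hspb1 (chr5:135887669-135887918, plus strand), Hspb3 (chr13:113663677-113663926, minus strand) and Hspb7 (chr4:141420529-141420778, plus strand). A stretch of 30 bases around the match is printed for Hspb6 (chr7:30553170-30553199, plus strand, before its second listed start), Hspb8 (chr5:116422844-116422873, minus strand, across the start) and Hspd1 (chr1:55088053-55088082, minus strand, before its second listed start). Capitals mark every match to GAANNTTC or TTCNNGAA, the 2 ways in which neighbouring units can face each other.
Hspb1: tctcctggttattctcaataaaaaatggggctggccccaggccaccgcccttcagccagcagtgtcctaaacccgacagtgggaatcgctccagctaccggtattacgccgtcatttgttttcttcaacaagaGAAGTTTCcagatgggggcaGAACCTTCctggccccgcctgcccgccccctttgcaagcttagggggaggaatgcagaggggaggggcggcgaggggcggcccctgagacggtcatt
Hspb3: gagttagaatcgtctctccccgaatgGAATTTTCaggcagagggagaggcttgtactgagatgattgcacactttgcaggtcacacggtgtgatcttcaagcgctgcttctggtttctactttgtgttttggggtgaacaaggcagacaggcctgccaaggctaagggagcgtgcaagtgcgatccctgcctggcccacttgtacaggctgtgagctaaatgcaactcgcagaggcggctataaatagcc
Hspb7: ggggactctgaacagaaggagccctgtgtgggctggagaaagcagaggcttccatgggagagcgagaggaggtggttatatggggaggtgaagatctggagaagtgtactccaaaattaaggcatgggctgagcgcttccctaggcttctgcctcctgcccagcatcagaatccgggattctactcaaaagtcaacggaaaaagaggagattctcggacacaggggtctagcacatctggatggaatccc
Hspb6: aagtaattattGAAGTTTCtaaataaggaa
Hspb8: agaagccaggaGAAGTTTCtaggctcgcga
Hspd1: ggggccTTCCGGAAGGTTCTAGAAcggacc

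Positions count from 0 at the annotated start. Hspb1 held 2 matches, at -117 to -110 and at -97 to -90. The letters GAAGTTTC stood in Hspb1, in Hspb6 and in Hspb8, where they began 2 bases past the start. In Hspd1 a run of 4 alternating units spanned -144 to -127, so that matches of both patterns overlapped. The windows of Hspb7 and of Hspb11, which is not printed, held no match, and neither did the first listed windows of Hspb6 and Hspd1. Both 8-letter patterns read the same on either strand. GAANNTTC occurred in 13 of the 58 genes with a window (22.4%), against 9.04% of all 27025 genes in the table. TTCNNGAA occurred in 5 of 58 (8.62%), against 9.6% of all genes. One of the 2 patterns was present in 27.6% of the chaperone genes and in 17% of all genes, and a 3-unit form, GAANNTTC or TTCNNGAA carried on by NN and the next alternating unit, was present in Hspd1 and Dnajb6 (3.45%), against 0.662% of all genes. These matches describe letters in fixed windows and not binding. The following genes had no window in the table: Bag4, Cct4, Dnajc11, Dnajc12, Dnajc18, Dnajc2, Dnajc22, Dnajc5, Hsp90aa1, Hsp90ab1, Hspa13, Hspa8, Hspa9, Hspb2 and St13.

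**Figure D1:**
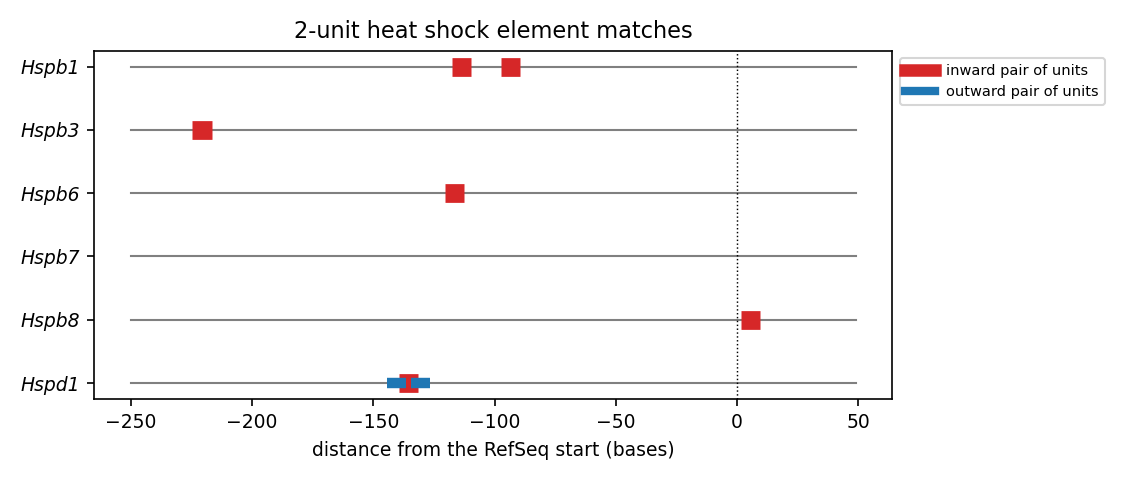
Position of heat shock element matches in 6 promoter windows; the horizontal axis is the distance in bases from the RefSeq start (dotted line), each grey line is 1 window, and coloured blocks are matches whose 2 units face inward (red, GAANNTTC) or outward (blue, TTCNNGAA). Hspb1 has 2 inward matches upstream of the start, Hspb8 has 1 just past the start, Hspd1 has overlapping matches of both kinds and Hspb7 has none.

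Values are fluorescence intensities on a linear scale after quantile normalization between arrays, and differences are given in log2. An array with single probes per gene carries a probe error as well. Among 50 genes with 2 probes at or above the median level, the standard deviation of a single probe's log2 difference was 0.269 for TAC against sham in WT and 0.425 for TAC against sham in STIM1KO. Past 2 such deviations lay 5 of the 73 chaperone genes in each response: Cct5, Cct8l1, Dnajc15, Dnajc22 and Hspa4 in WT, and Cct5, Dnajb12, Dnajb13, Dnajc15 and Hspa13 in STIM1KO. That is 6.85% of the chaperone genes in each, against 11.6% of all genes in WT and 9.68% in STIM1KO. These shares are not matched for level, as 57 of the 73 chaperone genes but 7020 of the 14039 genes lay at or above the median level. They do not show that chaperone genes passed the probe error less often than equally bright genes. This error was taken from brighter probes and does not cover dim ones. It was about as large as the standard deviation of the log2 differences across genes at or above the median level, 0.255 in WT and 0.418 in STIM1KO. Differences of single genes below are to be read beside it. The STIM1KO TAC array stood apart. Across genes at or above the median level it correlated with the other arrays at 0.963 to 0.974, while the others correlated among themselves at 0.987 to 0.990. Stim1 read 41.6 after sham and 33.9 after TAC in WT, and 20.7 after sham and 13.8 after TAC in STIM1KO, which was 2.01-fold lower in STIM1KO after sham and 2.46-fold lower after TAC. Its mean log2 intensity lay below the median level of all genes. Where its probe lies relative to the alteration is not known here.

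The 73 chaperone genes as a whole differed little by TAC in WT and lay slightly lower by TAC in STIM1KO. Between WT TAC and WT sham their median log2 difference was -0.014 (all 14039 genes, -0.019), with 35 genes above 0 and 38 below. Of all genes, 52.6% lay below 0. Between STIM1KO TAC and STIM1KO sham the median was -0.11 (all genes, 0.011), with 27 above 0 and 46 below, where 49% of all genes lay below 0. Over 3 other scalings of the arrays the STIM1KO median ran from -0.18 to -0.027, and the WT median changed sign with values up to 0.036. Relative to the median of all genes, the chaperones in STIM1KO lay between -0.10 and -0.15 under every setting tried. Several of these settings could not move this value. A change of threshold leaves medians as they are, and median centring and values as deposited give the same value by construction. Taking the mean over probes altered only Hspa8 among the chaperones.

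Few of these genes reached 2-fold. In the WT response to TAC, 1 chaperone gene was at least 2-fold higher and 0 lower, where 0.933% and 1.15% of all genes were higher and lower. In the STIM1KO response, 0 were 2-fold higher and 1 lower, against 3.48% and 2.34% of all genes. The gene pair behind these counts was Cct8l1 in WT and Hspa13 in STIM1KO, both read from dim probes below the median level of all genes (an intensity of 29.3). At 1.5-fold the WT response held 3 chaperone genes higher and 2 lower, against 4.77% and 4.94% of all genes. At or above the median level it held 1 of 57 higher (1.75%, against 1.55% of 7020 genes) and 2 of 57 lower (3.51%, against 1.3%). The STIM1KO response held 4 higher and 16 lower, against 12% and 10.9%. The 16 lower genes were 21.9% of the 73. Among genes at or above the median level, 3 of 57 were 1.5-fold higher in the STIM1KO response (7.31% of the 7020 genes at that level) and 11 of 57 were lower (19.3%, against 7.11%). Scaling changed the number of lower genes from 16 of 73 to 17 with median centring (23.3%, against 12.3% of all genes). It was 12 with values as deposited (16.4%, against 8.49%) and 11 with quantile normalization over all probes (15.1%, against 7.39%).

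**Figure D2:**
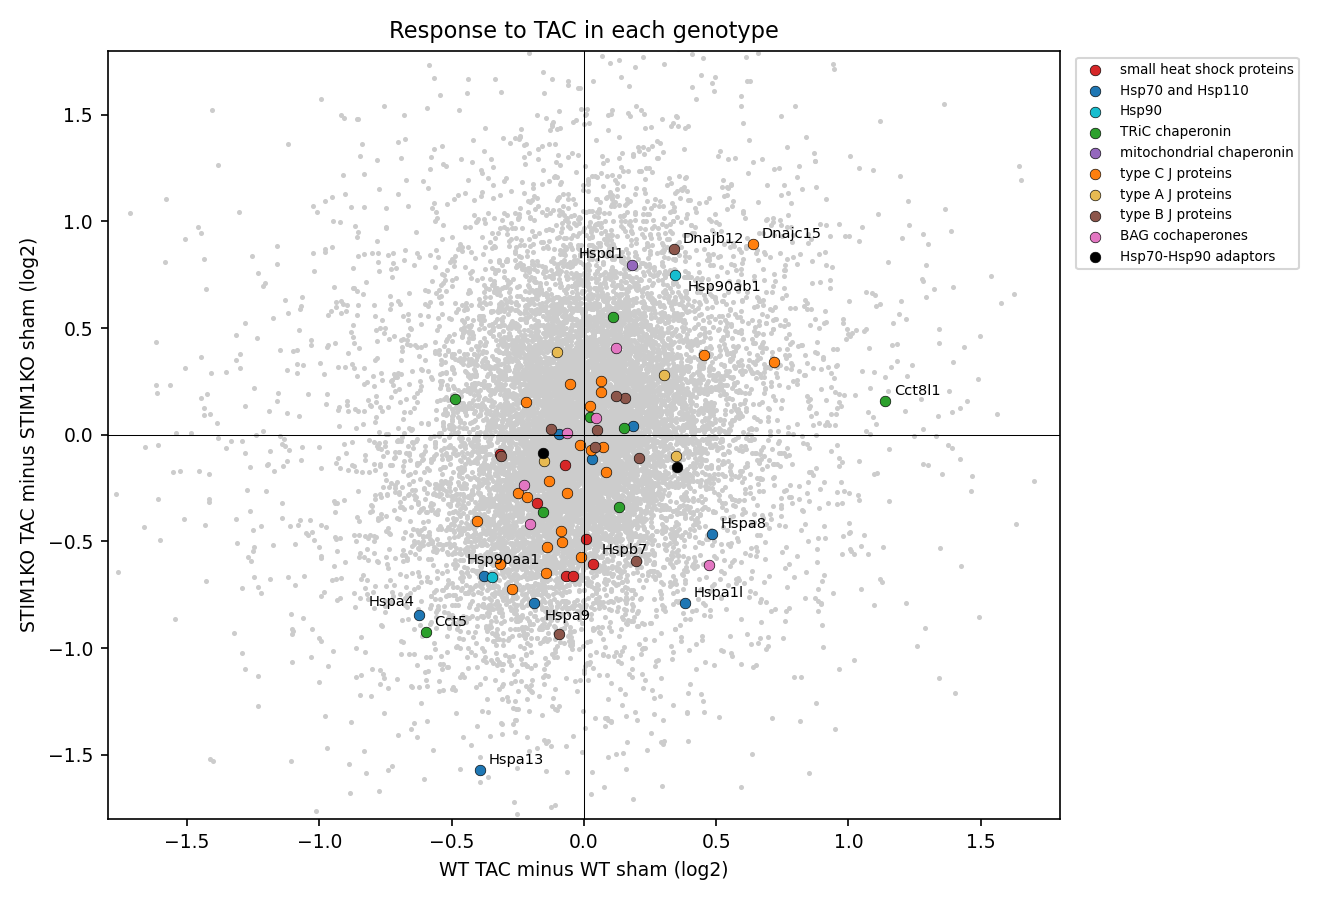
Log2 difference between TAC and sham in WT (horizontal axis) and in STIM1KO (vertical axis), with 1 point per gene; grey points are all 14039 genes, coloured points the 73 chaperone genes by family, and 71 genes lie outside the axes. The 2 axes share no array. Most coloured points lie within 1 log2 unit of 0 on both axes, with Hspa13 lowest on the vertical axis and Cct8l1 farthest to the right.

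No array is shared between the responses of the 2 genotypes, so their directions can be set side by side. Of the 73 genes, 20 lay above 0 in both responses and 31 below 0 in both, together 69.9%, where 57.9% of all genes had the same sign in both. At or above the median level the shares were 68.4% of 57 chaperone genes and 60.3% of 7020 genes. Lowest values were most often on the STIM1KO TAC array, for 34 of the 73 chaperone genes (46.6%) and for 33.6% of all genes. That array also held the highest value for 20 chaperone genes (27.4%), against 36.8% of all genes. At or above the median level it was the lowest for 45.6% of 57 chaperone genes, against 36.1% of 7020 genes. It was the highest for 28.1% of them, against 37.4%.

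All 7 small heat shock protein genes with an Hspb symbol lay below 0 in the STIM1KO response to TAC, against 49% of all genes. Their median log2 difference was -0.49, while in WT the same genes had a median of -0.067. For 6 of the 7, the STIM1KO TAC array was the lowest of the 4, as it was for 33.6% of all genes. In STIM1KO the 7 genes stayed below 0 under each of the 3 other scalings, with medians from -0.55 to -0.43, whereas the sign of the small WT median depended on the scaling. At 1.5-fold, 3 of the 7 were lower in STIM1KO, against 10.9% of all genes. With quantile normalization over all probes 2 of the 7 were lower, against 7.39% of all genes.

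Hspb1, which binds actin filaments and unfolded proteins, read 3983 after sham and 3802 after TAC in WT, and 3855 after sham and 2439 after TAC in STIM1KO. The first 3 arrays lay within a narrow band and STIM1KO TAC lay below them. Its log2 difference by TAC was -0.07 in WT and -0.66 in STIM1KO, and STIM1KO TAC was 1.56-fold lower than WT TAC. Hspb7, a small heat shock protein of heart and skeletal muscle that binds filamin C, read 1377, 1410, 1410 and 926 on the same arrays in that order. It too was low on STIM1KO TAC alone, with log2 differences by TAC of 0.03 in WT and -0.61 in STIM1KO.

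Hspb8, the partner of Bag3 in selective autophagy of damaged sarcomere proteins, read 5005 after sham and 4868 after TAC in WT, and 6444 after sham and 4076 after TAC in STIM1KO. Here STIM1KO sham was the highest array and STIM1KO TAC the lowest, so the log2 difference of -0.66 by TAC in STIM1KO combined a high sham and a low TAC value. Hspb6 (Hsp20), which associates with actin and is phosphorylated by cyclic-nucleotide-dependent kinases, had the same order, with 3131, 3150, 3898 and 2780. By TAC it differed by 0.01 in WT and by -0.49 in STIM1KO.

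The other small heat shock genes differed less. Hspb2, a muscle protein that forms complexes with Hspb3 and is a neighbour of Cryab, read 493 after sham and 436 after TAC in WT, and 445 after sham and 356 after TAC in STIM1KO, a log2 difference by TAC of -0.18 in WT and -0.32 in STIM1KO. Hspb3 lay between 277 and 305 on all arrays. Hspb11, which despite its symbol is a component of the intraflagellar transport machinery, read 89.9, 72.2, 81.5 and 76.5, and was lowest on WT TAC. Cryab, the most closely related crystallin and no member of the Hspb symbols, read 344, 360, 254 and 341 and was lowest on STIM1KO sham, with a log2 difference by TAC of 0.42 in STIM1KO.

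**Figure D3:**
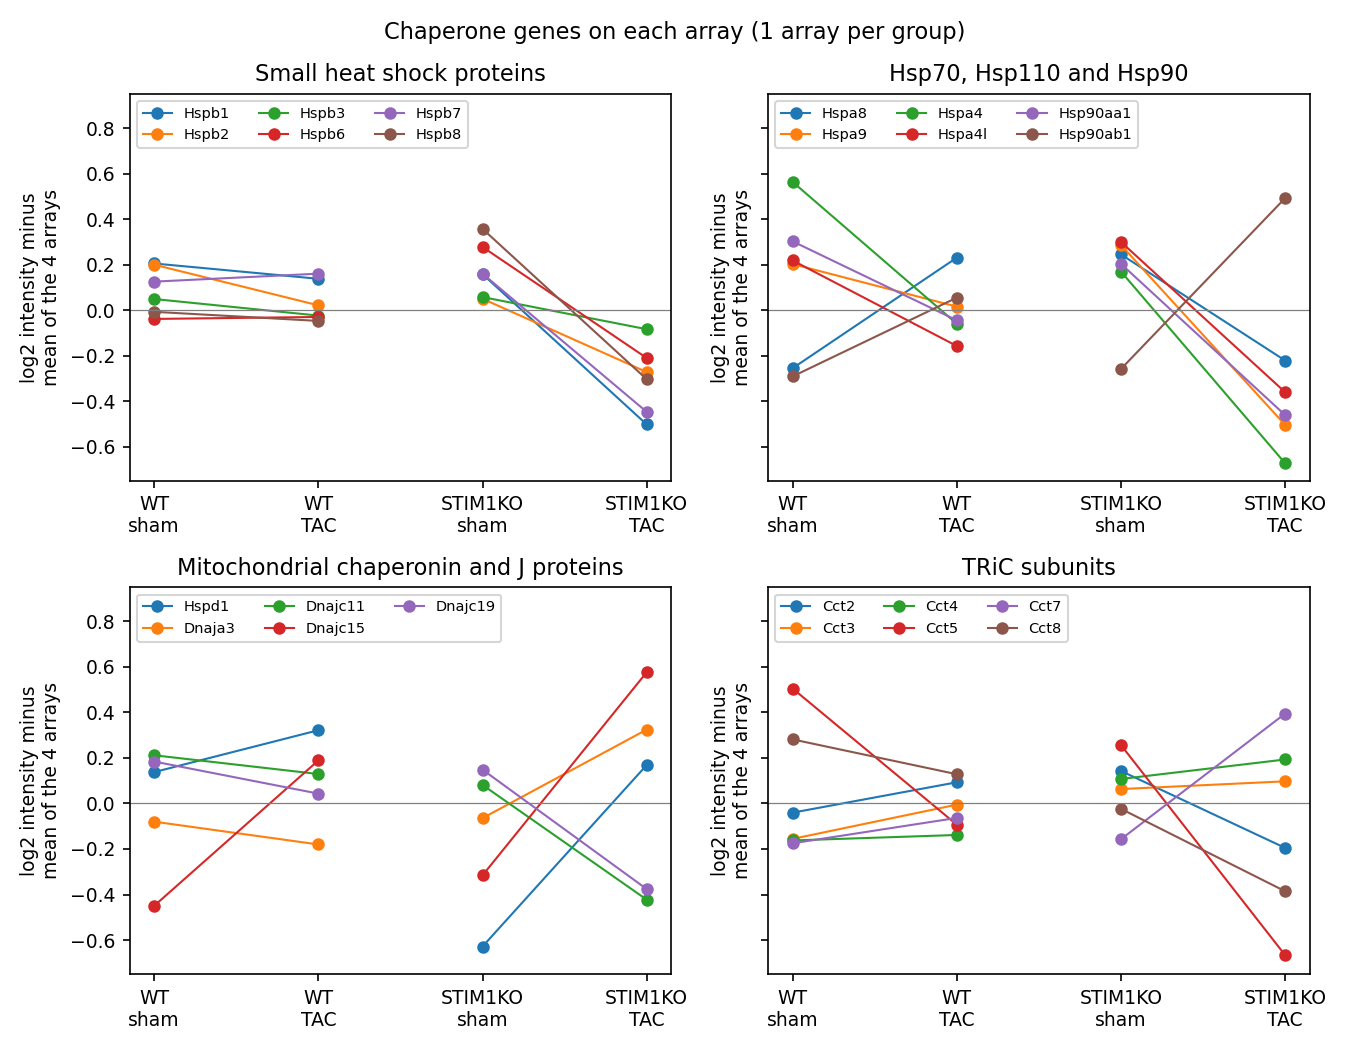
Log2 intensity of 23 chaperone genes on the 4 arrays, each gene shown as its difference from its own mean over the arrays, with sham and TAC of a genotype joined by a line and 1 array per group. In the top left panel the small heat shock genes are level between both WT arrays and lowest on STIM1KO TAC; in the other panels genes of 1 complex run in different directions.

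Genes of the Hsp70 and Hsp110 family had a median log2 difference of -0.66 by TAC in STIM1KO, with 7 of 9 genes below 0 and 5 of 9 at least 1.5-fold lower, against 6886 of 14039 genes below 0 and 10.9% at least 1.5-fold lower among all genes. In WT the median was -0.095, with 5 of 9 below 0. The STIM1KO median stayed between -0.74 and -0.59 under the other scalings. Mortalin, Hspa9, which pulls proteins into the mitochondrial matrix, read 838 after sham and 736 after TAC in WT, and 887 after sham and 513 after TAC in STIM1KO. STIM1KO TAC was the low array, and the log2 difference by TAC was -0.19 in WT and -0.79 in STIM1KO.

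Hspa4, an Hsp110 that exchanges nucleotide on Hsp70, was lower on the TAC array of each genotype. It read 821 after sham and 533 after TAC in WT, and 625 after sham and 349 after TAC in STIM1KO, a log2 difference of -0.62 in WT and -0.84 in STIM1KO. Its spread over the 4 arrays, 2.36-fold, was the widest of the 57 chaperone genes at or above the median level. Its relative Hspa4l had the same direction in both genotypes, with 114 and 88.0 in WT and 121 and 76.5 in STIM1KO for sham and TAC, and log2 differences of -0.38 and -0.66.

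Hspa8, the constitutive Hsp70 of the cytosol (Hsc70), showed an opposite order in the 2 genotypes. It read 8995 after sham and 12596 after TAC in WT, and 12716 after sham and 9205 after TAC in STIM1KO. WT TAC and STIM1KO sham were the high pair, WT sham and STIM1KO TAC the low pair. The log2 difference by TAC was 0.49 in WT and -0.47 in STIM1KO. Hspa8 was the only chaperone gene here with several probes, and its dimmer second probe gave 0.46 and -0.25, with the same high pair.

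Hspa1l, a constitutive Hsp70 best known from testis, read 45.3 after sham and 59.1 after TAC in WT, and 87.9 after sham and 50.9 after TAC in STIM1KO. STIM1KO sham was high and the other arrays lay close together, giving log2 differences by TAC of 0.38 in WT and -0.79 in STIM1KO. Hspa13, a shortened Hsp70 of microsomes, read 8.73, 6.66, 7.14 and 2.40 and thus lay near the dim end on all arrays. Its log2 difference by TAC in STIM1KO, -1.57, shrank to -0.68 when an offset of 5.49 intensity units was added before the logarithm. Hspa14, an Hsp70 of the ribosome, lay between 117 and 135, Hspa2 between 30.8 and 40.5 and the distant relative Hspa12a between 5.53 and 6.79.

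The 2 cytosolic Hsp90 genes ran in opposite directions. Hsp90aa1, the stress-inducible form, read 1262 after sham and 992 after TAC in WT, and 1178 after sham and 743 after TAC in STIM1KO, lower on the TAC array of each genotype by log2 differences of -0.35 and -0.66. Hsp90ab1, the constitutive form, read 1798, 2285, 1839 and 3095, higher on the TAC array of each genotype by 0.35 and 0.75. Both sham arrays were nearly level for each gene. The adaptors that link Hsp70 to Hsp90 differed little: Stip1 (Hop) lay between 223 and 267, and St13 (Hip) read 318, 406, 364 and 328, highest on WT TAC.

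J proteins, which deliver clients to Hsp70 and start its ATP cycle, showed no common direction. In type A the median log2 difference by TAC was 0.10 in WT and 0.09 in STIM1KO, with 2 of 4 genes above 0 in each. Dnaja1 read 101 on WT sham and between 118 and 129 on the other arrays. Dnaja2 lay between 276 and 309. Dnaja4 was lowest on WT sham (79.7) and highest on STIM1KO TAC (121), with 98.4 on WT TAC and 99.3 on STIM1KO sham.

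In type B, 7 of 10 genes lay above 0 in WT and 5 of 10 in STIM1KO. Dnajb1 (Hsp40), a classical heat-inducible partner of Hsp70, read 104 after sham and 115 after TAC in WT, and 84.3 after sham and 95.1 after TAC in STIM1KO, with both STIM1KO arrays below both WT arrays and log2 differences by genotype of -0.30 and -0.28. Dnajb14, a J protein of the endoplasmic reticulum membrane that faces the cytosol, read 54.3, 62.3, 59.4 and 39.4 and was low on STIM1KO TAC. Its relative Dnajb12, whose mean lay below the median level, read 29.9, 37.8, 15.5 and 28.4 and was low on STIM1KO sham, with a log2 difference by TAC of 0.34 in WT and 0.87 in STIM1KO. Dnajb4 lay between 671 and 788, Dnajb2 between 244 and 266 and Dnajb6 between 16.3 and 20.3. Dnajb13 of sperm flagella, dim at 4.08 to 7.80, was the lowest of type B in the STIM1KO response at -0.94.

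Type C, the most varied class, held 24 genes with a median log2 difference by TAC of -0.06 in WT and -0.19 in STIM1KO. In STIM1KO 16 of 24 lay below 0, against 49% of all genes. Under the other scalings the STIM1KO median ran from -0.20 to -0.05 and 13 to 16 of the 24 lay below 0. Dnajc13 (RME-8), an endosomal J protein, read 60.8 after sham and 55.0 after TAC in WT, and 50.1 after sham and 32.0 after TAC in STIM1KO, 1.57-fold lower by TAC in STIM1KO. Dnajc14 read 49, 48.6, 55.0 and 36.9, and Dnajc8, a nuclear protein bound to splicing factors, read 666, 627, 665 and 487. For all 3, STIM1KO TAC was the lowest array. Dnajc4 ran the other way and was higher on the TAC array of each genotype, with 432 and 591 in WT and 485 and 629 in STIM1KO.

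Dnajc18 (13.4 to 26.2) was the lowest of type C in the STIM1KO response, at -0.72, and Dnajc22 (2.83 to 5.83) the highest in the WT response, at 0.72. Dnajc16 was lower on the TAC array of each genotype, with a log2 difference of -0.40 in both. Dnajc1, which anchors to the endoplasmic reticulum, read 110 on WT sham and 104 on STIM1KO TAC, above WT TAC at 94.1 and STIM1KO sham at 93.7. Dnajc7, Dnajc21 and Dnajc24 lay within 220 to 259, 142 to 157 and 108 to 129.

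Mitochondrial chaperones split as well. Hspd1, the Hsp60 chaperonin of the matrix, read 2656 after sham and 3017 after TAC in WT, and 1562 after sham and 2714 after TAC in STIM1KO. STIM1KO sham was the single low array, and the log2 difference by TAC was 0.18 in WT and 0.80 in STIM1KO. Dnajc15 (MCJ), a J protein of the inner membrane, was higher on the TAC array of each genotype, with 937 and 1459 in WT and 1028 and 1908 in STIM1KO for sham and TAC. The log2 difference was 0.64 in WT and 0.89 in STIM1KO, and Dnajc15 was the only chaperone gene at or above the median level that was 1.5-fold higher in both.

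Its paralog Dnajc19 (Tim14), a subunit of the import motor known from an inherited cardiomyopathy, ran the other way, with 2992 after sham and 2714 after TAC in WT, and 2919 after sham and 2029 after TAC in STIM1KO. Dnajc11, which is attached to the cristae-organising complex, read 216, 204, 197 and 139 and was likewise low on STIM1KO TAC alone. Dnaja3 (Tid1), the J partner of Hspa9 in the matrix, read 114, 106, 115 and 151 and was high on that array. By TAC in STIM1KO the log2 differences were -0.52 for Dnajc19, -0.50 for Dnajc11 and 0.39 for Dnaja3.

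**Figure D4:**
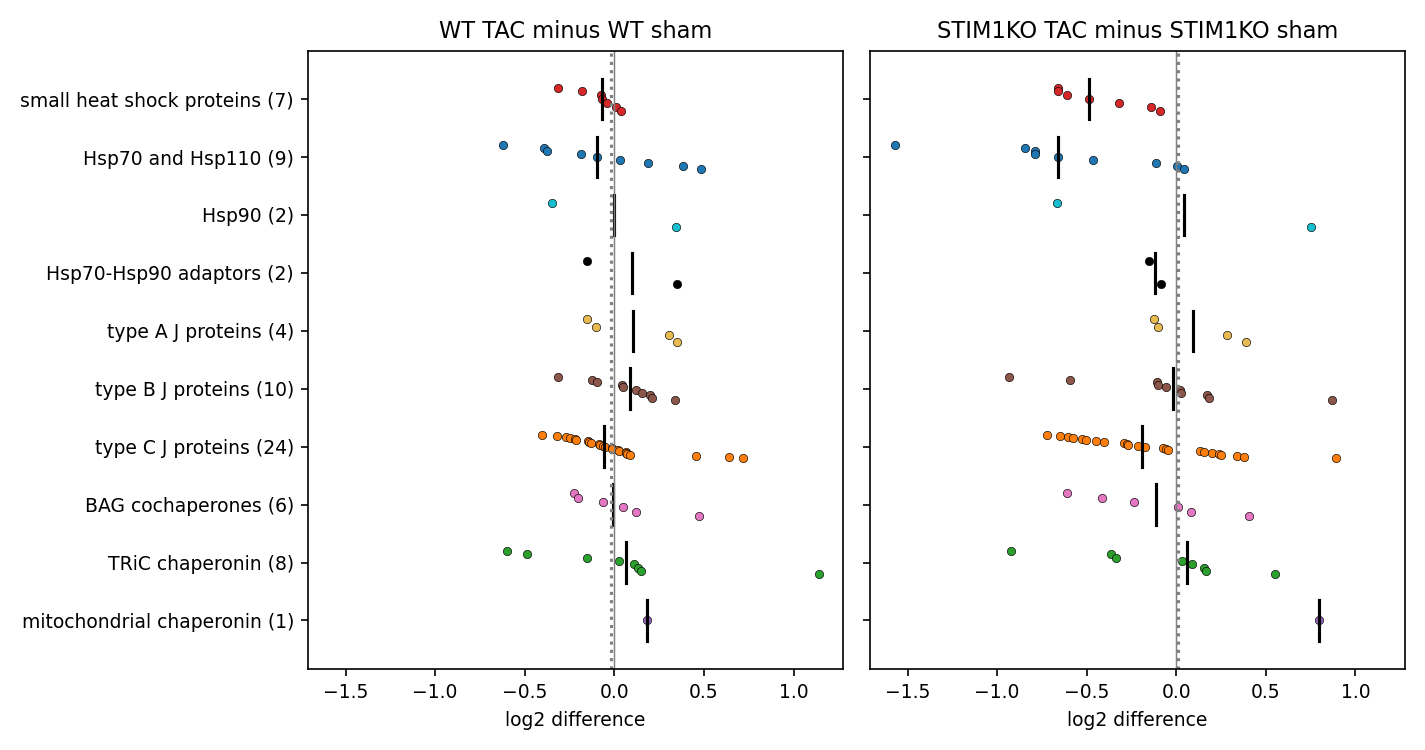
Log2 difference between TAC and sham in WT (left) and in STIM1KO (right) for each of the 73 chaperone genes by family; points are genes, the number in brackets counts them, black bars are family medians and the dotted line is the median of all 14039 genes. The small heat shock genes and the Hsp70 and Hsp110 genes are shifted to the left in STIM1KO, with medians of -0.49 and -0.66, while Hsp90, TRiC and J protein genes lie on both sides of 0.

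TRiC (CCT) is a ring of different subunits that folds actin and tubulin, and its genes ran in different directions. Cct5 read 1253 after sham and 828 after TAC in WT, and 1055 after sham and 556 after TAC in STIM1KO, lower on the TAC array of each genotype by log2 differences of -0.60 and -0.92. Cct8 read 797, 717, 645 and 502 and had the same direction, with -0.15 and -0.36. Cct7 was high on STIM1KO TAC, with 181, 196, 183 and 269 and a log2 difference by TAC of 0.55 in STIM1KO. Cct2 lay between 474 and 599 and was lowest on STIM1KO TAC, while Cct3 (997 to 1188) and Cct4 (888 to 1137) were highest there. Cct8l1 and Cct6b were dim, at 1.46 to 3.74 and 2.52 to 4.80. The median of the 8 genes in STIM1KO was 0.06, turned to -0.05 when each array was centred on its median and to -0.15 without the dim genes, so no direction can be given for the complex.

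BAG proteins, which release nucleotide from Hsp70, were nearly level in the median, -0.01 in WT and -0.11 in STIM1KO, with 3 of 6 genes on either side of 0 in each. Bag3, the heart and muscle member that joins Hsp70 to Hspb8, read 560 after sham and 537 after TAC in WT, and 668 after sham and 672 after TAC in STIM1KO. Both STIM1KO arrays lay above both WT arrays, by log2 differences of 0.25 after sham and 0.32 after TAC. Bag1 (1207 to 1525) and Bag6 (491 to 672), which guards membrane proteins on their way to the membrane, were lower on the TAC array of each genotype. Bag2, an inhibitor of the ubiquitin ligase Chip, lay between 129 and 171, and was highest on STIM1KO TAC, and Bag5 lay between 44.3 and 51.1. Bag4 was dim, with 11.3, 15.7, 14.1 and 9.26.

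STIM1KO and WT were then compared after each operation. After sham, the chaperone genes had a median log2 difference of 0.018 (all genes, -0.0053), and the sign of this small median depended on the scaling. Above 0 lay 39 genes and below it 34, where 50.7% of all genes lay below. At 2-fold 1 gene was higher and 0 lower, against 1.03% and 1.64% of all genes, and at 1.5-fold 3 were higher and 2 lower, against 5.05% and 6.67%. Those lower were Hspd1, at -0.77, and the dim Dnajb12, at -0.94. Those higher were Hspa1l, at 0.96, and the dim Cct8l1 and Dnajc22. At or above the median level 1 of 57 was 1.5-fold higher and 1 of 57 lower (1.75% each, against 1.23% and 2.74% of 7020 genes).

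After TAC the median was -0.13 (all genes, 0.027), and it ran from -0.21 to -0.11 over the other scalings. This comparison and the STIM1KO response share the STIM1KO TAC array, so they are not separate evidence. Above 0 lay 29 genes and below it 44, where 47.8% of all genes lay below. At 2-fold 0 genes were higher and 1 lower, against 2.71% and 2.67% of all genes. At 1.5-fold 1 was higher and 8 lower, or 11% of the chaperone genes, against 11.4% and 11.4% of all genes. At or above the median level 0 of 57 were higher (6.31% of 7020 genes) and 5 of 57 lower (8.77%, against 8.22%). The 8 lower genes were Hspb1, Hspb7, Hspa4, Dnajc13 and Dnajb14 above the median level, and the dim Hspa13, Bag4 and Dnajc18. The 1 higher gene was the dim Cct6b. With arrays centred on their medians, and likewise with values as deposited, 12 chaperone genes (16.4%) were 1.5-fold lower, against 12.4% and 12.2% of all genes. The share of higher genes was 1.37%. The sham and TAC genotype differences share no array, and 67.1% of the chaperone genes had the same sign in both, against 59.6% of all genes. At or above the median level the shares were close, 64.9% of the 57 chaperone genes against 62.1% of the 7020 genes.

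**Figure D5:**
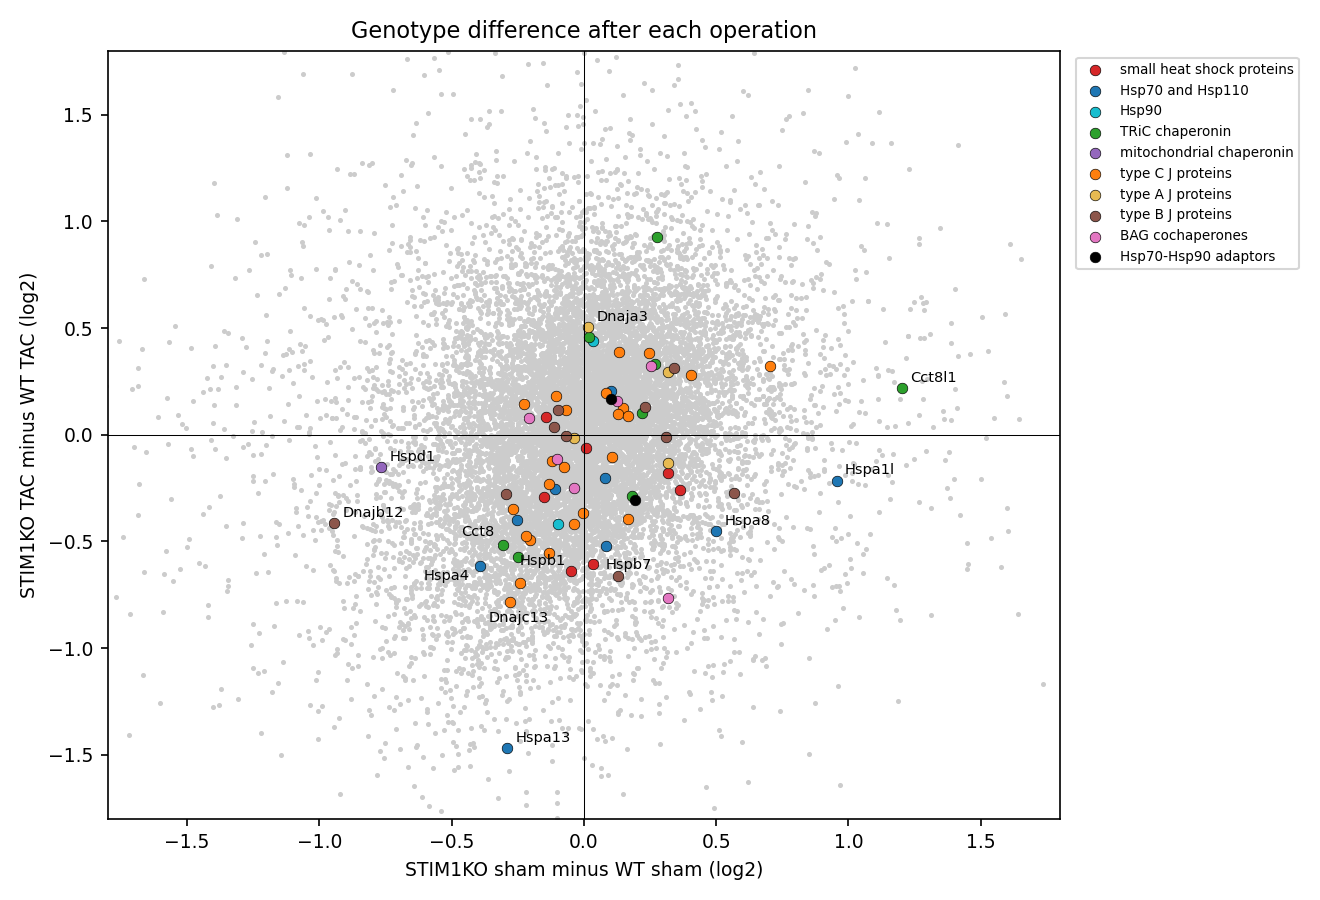
Log2 difference between STIM1KO and WT after sham (horizontal axis) and after TAC (vertical axis), with 1 point per gene; grey points are all 14039 genes, coloured points the 73 chaperone genes by family, and 57 genes lie outside the axes. Hspd1 and Dnajb12 lie to the left, Hspa1l and Cct8l1 to the right, and Hspb1, Hspb7 and Hspa4 lie low on the vertical axis.

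The difference of responses, which is the STIM1KO response less the WT response, had a median of -0.12 over the chaperone genes (all genes, 0.0045). Above 0 lay 24 genes and below it 49, where 49.6% of all genes lay below. At 2-fold 0 genes were higher and 3 lower, against 5.16% and 3.43% of all genes, and at 1.5-fold 2 were higher and 11 lower, against 14.4% and 11.4%. At or above the median level 1 of 57 was 1.5-fold higher (1.75%, against 8.15% of 7020 genes) and 7 of 57 lower (12.3%, against 5.94%). The 3 at 2-fold were Hspa1l (-1.17), Hspa13 (-1.18) and Bag4 (-1.08), and the last 2 of these are dim. The 11 at 1.5-fold added Hspa8 (-0.95), Hspa9 (-0.60), Hspb1 (-0.59), Hspb7 (-0.64), Hspb8 (-0.62), Dnajb14 (-0.79), Dnajb13 (-0.84) and Cct8l1 (-0.98). Those higher were Hspd1 (0.61) and the dim Cct6b (0.65). This difference uses all 4 arrays and shares them with each response, so it is no separate evidence.

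Other genes of protein quality control were taken from lists. Of the heat shock factors and their binding protein, 3 of 5 genes had values, and all 3 lay below 0 in STIM1KO. Hsf1, the main activator of heat shock genes, read 74.7 after sham and 87.4 after TAC in WT, and 79.1 after sham and 57.0 after TAC in STIM1KO, a log2 difference by TAC of 0.23 in WT and -0.47 in STIM1KO. Hsp90 cochaperones had values for 15 of 18 genes, of which 7 lay above 0 and 8 below in WT, and 5 above and 10 below in STIM1KO. Ppid, the Hsp90-bound cyclophilin 40, was the only listed gene outside the 73 at 2-fold among these proteostasis lists, with 148, 170, 145 and 298 and a log2 difference by TAC of 1.04 in STIM1KO. Unc45b, the myosin chaperone of striated muscle, read 957, 806, 780 and 472 and was low on STIM1KO TAC.

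Prefoldin, which hands actin and tubulin to TRiC, had 5 of 6 genes with values, and 4 of these 5 lay below 0 in STIM1KO with a median of -0.39 (WT, -0.062). Mitochondrial Hsp90, exchange factors and proteases had medians of 0.022 in WT and 0.014 in STIM1KO over 10 of 11 genes, 5 on each side of 0 in both. The remaining Hsp70 cofactors and crystallins, 5 of 7 with values, had medians of -0.0058 in WT and -0.27 in STIM1KO. Endoplasmic reticulum chaperones, 15 of 15, had medians of 0.13 in WT and -0.22 in STIM1KO, with 10 above and 5 below 0 in WT and the reverse in STIM1KO. Within them Hspa5 (BiP) had a log2 difference by TAC of 0.70 in STIM1KO.

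Summed markers of cell types differed between the arrays. Cardiomyocyte markers, 6 of 7 with a value, summed to 149203 after sham and 161500 after TAC in WT, and 163577 after sham and 188668 after TAC in STIM1KO. The cardiac label of the tissue was borne out by bright Myh6, the alpha myosin heavy chain (12306 to 16894), while Ryr2 was read from a dim probe (lowest value 2.77). These sums are dominated by the brightest probes. At that end quantile normalization gives values in steps of rank. Mb read 65551 or 66594 on each array, and Tnnt2 read 38715 on STIM1KO sham and 58086 on STIM1KO TAC. Endothelial markers (8 of 8) summed to 3578, 3267, 2533 and 2185, fibroblast markers (8 of 8) to 5107, 4560, 4014 and 3284, and smooth muscle markers (4 of 4) to 1153, 870, 1338 and 726. Macrophage markers (8 of 9) summed to 2150, 2300, 1912 and 2411, and lymphocyte markers (5 of 5) to 62.3, 52.1, 57.4 and 44.2. The STIM1KO TAC array was the lowest for 6 of 7 Hspb genes and for 5 of 9 Hsp70 and Hsp110 genes. It had the highest cardiomyocyte and macrophage sums and the lowest endothelial, fibroblast, smooth muscle and lymphocyte sums. Single markers were less uniform. That array was the highest for 3 of 6 cardiomyocyte markers and the lowest for 2 (Myh6 and Ryr2). It was the lowest for 6 of 8 endothelial, 4 of 8 fibroblast, 1 of 4 smooth muscle, 4 of 8 macrophage and 3 of 5 lymphocyte markers. The same array was the highest for 2 fibroblast markers (Col1a2 and Dpt), 4 macrophage markers (C1qa, C1qb, C1qc and Csf1r) and 1 lymphocyte marker (Ms4a1). It was the highest for 0 endothelial and 0 smooth muscle markers. No marker value was 0, and the part of these markers in the chaperone values was not tested. In bulk RNA, fewer cells of a type and less RNA per cell cannot be told apart.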

How the data were processed

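Total RNA of the left ventricle was measured on 4 arrays, 1 per group, assigned by title. Amplification used amino allyl chemistry, with Cy5 as the only dye, per the labels' protocols. A linear intensity per probe was deposited by the authors, and the array medians lay between 19.993 and 19.997. For the scanner, the background correction and the empty cells, the sources used here give no account.

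Values were taken to log2 from the deposited intensities and quantile-normalized over the 19607 of 23473 probes with a value on all 4 arrays (array medians spread over 0.101 log2 units), in Python 3.11.15 with numpy 2.4.6 and pandas 2.3.3. Symbols came from the platform annotation, updated through a RefSeq gene table (3947 updated, 12622 already current and 62 unmatched of 16631), and the probe with the highest mean stood for a gene. The steps were tested on simulated data. With 1 array per group, differences were counted at 2-fold and 1.5-fold beside the same over all genes, and no test was run. The number of arrays limits the precision.

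Genes named in the text are a fixed set of well-known chaperones, all at 2-fold in any comparison, all at or above the median level with a range of at least 1.5-fold, the extremes of each family, listed proteostasis genes at 2-fold, and genes whose probes disagree. Hsf1, Unc45b, Hspa5, Cryab, Dnajc19, Dnajc8, Dnajc4, Bag6, Cct2 and the genes given by range (Bag5, Cct3, Cct4, Dnajb2, Dnajb4, Dnajc7, Dnajc21, Dnajc24 and Hspa2) lie outside this rule, chosen with their values in view. The genes and lists were chosen with earlier results of these data known. Alternatives were other scalings (median centring, values as deposited, quantile normalization over all probes, the last added after seeing the data), filters on dim genes at the median and the 75th percentile, an offset of 5.49 (the 25th percentile of deposited values), the mean over probes, and thresholds of 1.5-fold and 3-fold. Figures were drawn with matplotlib 3.10.9.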

Additional observations from a re-analysis of the deposited data

Results flagged for a closer look

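For Bag4 and Hspa1l, the TAC array lay above the sham array in WT and below it in STIM1KO, and the 2 responses differed by at least 2-fold. The difference of responses was -1.08 for Bag4 and -1.17 for Hspa1l on the log2 scale. With 1 array in each group this difference was not tested, and Bag4 was read from a probe below the median level.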

How the results depend on the processing

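No paired analysis was possible because each group had 1 array. Of 125 summary values recomputed over the settings, 84 stayed within the set margins. Medians near 0 changed sign: that of the WT response went from -0.014 to 0.036 with values as deposited, 0.0054 with median centring and 0.0024 with quantile normalization over all probes, and that of genotype after sham from 0.018 to -0.0046 with values as deposited and to -0.014 with quantile normalization over all probes. Centring each array on its median gave medians of -0.18 for the STIM1KO response, 0.061 for genotype after sham, -0.21 for genotype after TAC and -0.19 for the difference of responses, and a count of 2 genes at 2-fold lower in the STIM1KO response. Values as deposited gave a median of -0.21 for genotype after TAC, and 1 gene at 2-fold lower after sham. Quantile normalization over all probes, added after seeing the data, gave a STIM1KO median of -0.027 beside an all-gene median that moved from 0.011 to 0.11, and 1 gene lower after sham.

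With the filter at the median level, and likewise with the offset, no chaperone gene reached 2-fold higher in the WT response (0) or after sham (0), or lower in the STIM1KO response (0) or after TAC (0), and 1 was lower in the difference of responses. With the filter at the 75th percentile and at 3-fold all of these counts were 0, including the difference of responses, and the filter gave a WT median of -0.062. At 1.5-fold the counts higher and lower were 3 and 2 in WT, 4 and 16 in STIM1KO, 3 and 2 after sham, 1 and 8 after TAC, and 2 and 11 for the difference of responses. Dim probes set most 2-fold counts, so signal over background limits them. The cause of the other shifts was not tested.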
